A study of Rattus norvegicus with 28 samples.

Results

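Potassium channels were described in RNA sequencing libraries of prefrontal cortex from adult male Sprague-Dawley rats, an outbred stock. Members were the protein-coding rows of the count table whose symbol is Kcn followed by letters and a number, with at least 100 counts summed over the 28 libraries. Of 36387 rows, 88 such genes were considered and 77 reached the minimum. The 77 genes cover 19 subfamilies, named here by the letters that open the symbol. Of these, 76 passed the low-count filter and were among the 17404 genes tested; Kcna7 did not pass. The rats were 8 weeks old on arrival and received a pair of intraperitoneal injections. The first held ketanserin at 1 or 3 mg/kg or its 5% Tween-80 vehicle, and the second held psilocybin at 1 or 3 mg/kg or saline. Tissue was taken 24 hours after the last injection. The 7 groups of 4 libraries were vehicle with saline, psilocybin 1 mg/kg after the Tween-80 vehicle, psilocybin 3 mg/kg after the Tween-80 vehicle, ketanserin 1 mg/kg with saline, ketanserin 3 mg/kg with saline, both drugs at 1 mg/kg and both drugs at 3 mg/kg. No group was of genetically modified rats. The labels call the 4 libraries of a group biological replicates, do not number them and give no batch. Library numbers below are names in accession order.

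Potassium channels let potassium leave the neuron and so set its resting potential, end each action potential and limit repeated firing. Pore-forming families respond to voltage, to calcium or sodium inside the cell, or to G proteins, and some conduct at rest. Auxiliary and electrically silent subunits change how and where the pores work. Psilocin, formed in the body from psilocybin, activates serotonin receptors including the serotonin 2A receptor, which ketanserin blocks. Receptors of its kind are known to close the Kv7 channels that carry the M-current of cortical pyramidal neurons, and other serotonin receptors open G protein-gated inward rectifiers.

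Total counts were 12783067 to 18538414 per library, with a median of 15366978. The 8 cortical neuron markers summed to 5463 to 6348 CPM, the usual count scaled to library size, here corrected by the library's TMM factor for RNA composition. Choroid plexus markers summed to at most 16.7 CPM, with 1 of the 5 found among the genes tested. Interneuron markers (Pvalb, Tac1, Lhx6, Sst and Slc32a1) summed to 286 to 883 CPM, and oligodendrocyte markers to 2370 to 8784 CPM. In bulk tissue, fewer cells of a type and less RNA per cell cannot be told apart. Vehicle library 2, psilocybin 3 mg/kg library 1 and library 4 of both drugs at 3 mg/kg lay at the ends of the first principal component of all genes, so results that rest on them are also given without them.

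The 3 channel genes with the most RNA per length in this cortex were the auxiliary subunit genes Kcnmb4 and Kcnab2 and the inward rectifier gene Kcnj9. Levels were compared between genes as FPKM, the deposited fragment counts scaled to gene length and library size. The highest was Kcnmb4, the neuronal beta subunit of the BK calcium-activated channel, at 137 ± 19.1 FPKM (SD, n = 28). Next came Kcnab2, a cytosolic beta subunit of Kv1 channels, at 125 ± 20.6 FPKM (SD, n = 28). Kcnmb4 was the higher of the pair in 19 of 28 libraries, so their order was within the spread. Kcnab2 was above the next gene, Kcnj9, in all 28 libraries. The 2 leading genes held 22.04% of the FPKM summed over the 77 members, the 10 leading genes 59.9% and the 40 leading genes 94.4%. By mean, 31 members reached 10 FPKM, 33 lay from 1 to under 10, and 13 were under 1. The median member stood at 5.37 FPKM, against 6.98 for all protein-coding rows with as many counts.

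**Figure D1:**
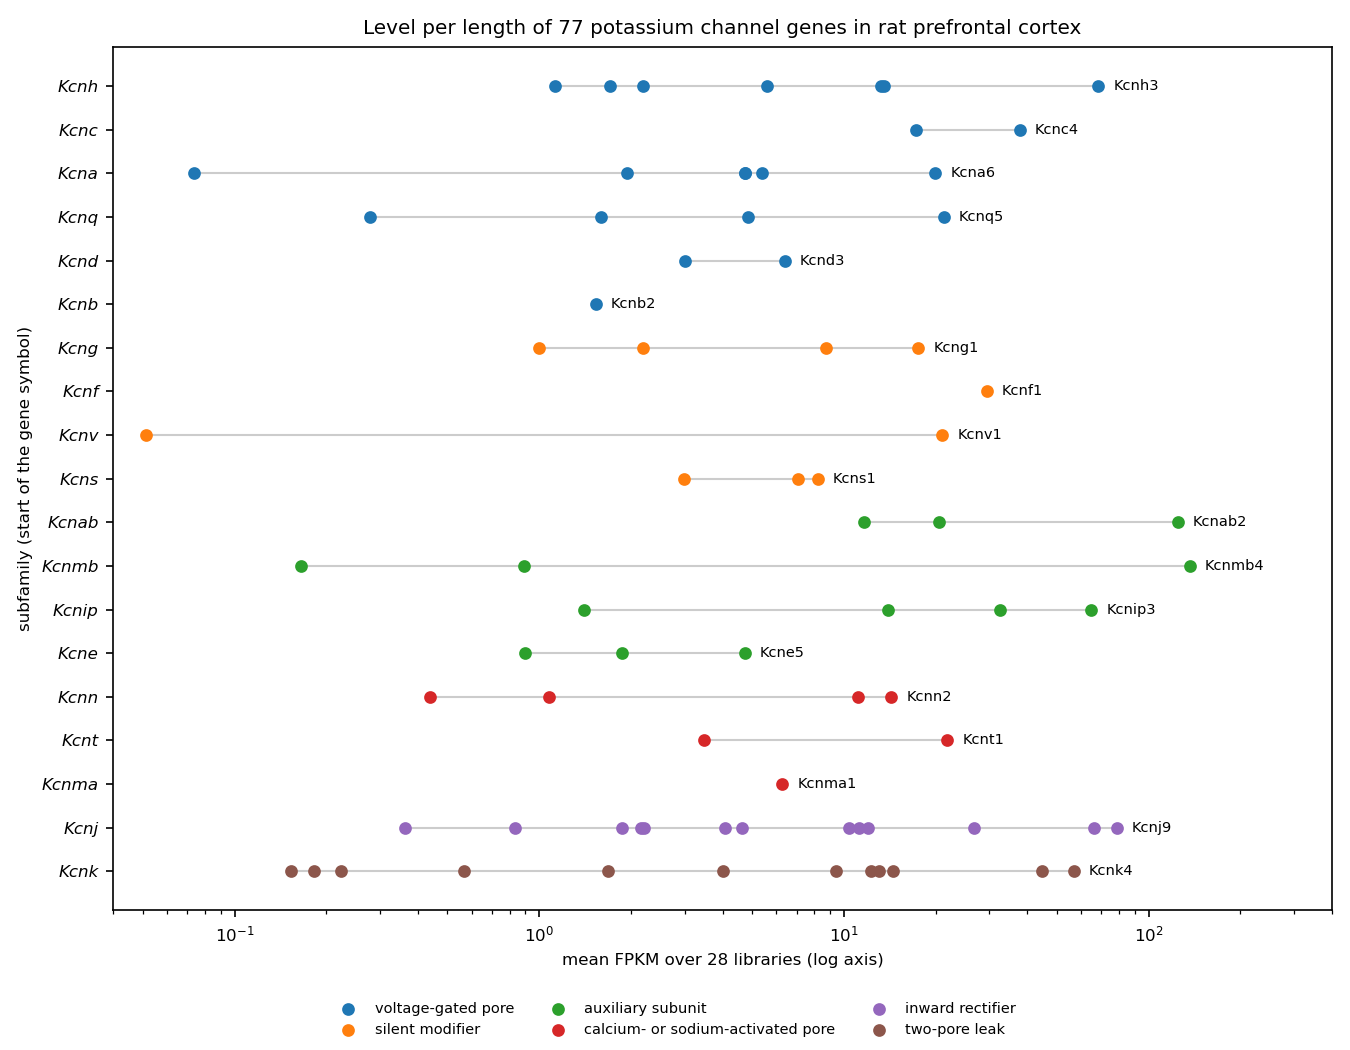
Mean FPKM over the 28 libraries (log axis) of each of the 77 members, a point per gene, on a row per subfamily and coloured by class, with the leading member named. Kcnmb4 (137) and Kcnab2 (125) stand to the right of all other members, and most subfamilies span more than a 10-fold range.

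By class, the 13 auxiliary subunits held 35.02% of the members' FPKM, the 22 voltage-gated pores 19.9%, and the 13 inward rectifiers 18.6%. The 12 K2P leak channels held 13.3%, the 10 silent subunits 8.25% and the 7 calcium- or sodium-activated pores 4.94%. The auxiliary share lay between 31.7% and 38.1% over the 28 libraries. These shares are of RNA and not of channels in the membrane.

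Among voltage-gated pores, Kcnh3, an ELK-type channel of forebrain neurons, was highest at 68.4 ± 6.94 FPKM (SD, n = 28). Its gene model overlaps that of Spats2 on the same strand, so its reads could in part belong to that gene. Kcnc4, a Kv3 gene whose channels allow fast firing, had 37.7 ± 2.50 FPKM. Kcnq5 had 21.3 ± 2.94 and Kcnq3 4.84 ± 2.97 FPKM, and both encode Kv7 subunits of the neuronal M-current. Kcnb2, a Kv2 delayed rectifier, stood at 1.53 ± 0.504 FPKM. Of the Kv1 genes, Kcna6 led at 19.96 ± 1.81 FPKM, and the axonal subunits Kcna1 and Kcna2 had 4.73 ± 3.05 and 5.37 ± 4.47 FPKM. Their SDs were large beside their means. Kcnd3, a Kv4 channel of the A-type current, had 6.39 ± 0.933 FPKM.

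Silent subunits form no channel alone and join Kv2 pores. Kcnf1 was the highest at 29.4 ± 10.1 FPKM. Kcnv1, Kcng1 and Kcns1 led their subfamilies at 21.04 ± 2.14, 17.5 ± 4.56 and 8.23 ± 2.25 FPKM. The auxiliary KChIP genes, whose calcium-binding products join Kv4 channels, gave Kcnip3 at 64.9 ± 7.48, Kcnip4 at 32.6 ± 2.77, Kcnip1 at 13.9 ± 2.44 and Kcnip2 at 1.40 ± 1.94 FPKM. Kcne5 led its single-pass family at 4.74 ± 1.53 FPKM.

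Of the calcium- or sodium-activated pores, the sodium-activated Kcnt1 (Slack) had the most RNA, at 21.9 ± 1.92 FPKM. Kcnn2, an SK channel of the afterhyperpolarisation, had 14.3 ± 2.35 FPKM. Kcnma1, the BK pore itself, had 6.27 ± 2.10 FPKM, far under its beta subunit gene Kcnmb4. Kcnmb4 overlaps AC136025.2 on the opposite strand. The libraries were directional per the labels' protocols, and the strand setting of the counting was not given in the sources used here.

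Inward rectifiers were led by Kcnj9 at 78.7 ± 11.2 and Kcnj4 at 66.0 ± 6.19 FPKM. Kcnj9 belongs with Kcnj3 (11.2 ± 4.33 FPKM), Kcnj6 (4.08 ± 1.85 FPKM) and Kcnj5 (0.361 ± 0.134 FPKM) to the G protein-gated GIRK genes. Kcnj11, the pore of ATP-sensitive channels, had 26.7 ± 2.48 FPKM, and its vascular relative Kcnj8 had 2.20 ± 0.536 FPKM. Kcnj10, the astrocyte channel Kir4.1 that clears potassium, had 11.98 ± 6.90 FPKM. Kcnj9 and Kcnj10 lie 12804 bases apart on chromosome 13 of rn6, at chr13:90703036-90710287 and chr13:90723092-90752581, on opposite strands. The K2P genes, background leak channels, were led by the mechanosensitive Kcnk4 at 56.9 ± 6.88 and by Kcnk1 at 44.6 ± 3.18 FPKM.

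At the low end, 11 members had no count in at least 1 library. The 3 members nearest the count minimum were Kcna7 with 113, Kcnv2 with 114 and Kcnk7 with 119 counts over all libraries. Just outside were Kcnk18 with 88, Kcne3 with 81 and Kcnu1, the Slo3 channel of sperm, with 73 counts. The gene models of 7 members overlap another protein-coding gene, including Kcnip1 and Kcnmb1, which overlap each other on opposite strands. Kcnab2 overlaps LOC500594 and Kcnj13 overlaps Gigyf2, each on the opposite strand. Kcnk9 overlaps Trappc9 on the same strand, so its reads could in part belong to that gene.

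Some channel genes varied widely between libraries of the same group, and others hardly varied. The variation between libraries of a group was expressed as the biological coefficient of variation (BCV), edgeR's estimate of spread beyond counting error. It was computed for the 51 members with a mean of at least 5 CPM. Members named for their spread were chosen after their values were seen. The steadiest were Kcnk1 (BCV 8.57%), Kcnc4 (9.13%), Kcna6 (10.1%), Kcnj11 (10.2%) and Kcnt1 (10.3%). The widest were Kcna2 (71.9%), Kcna1 (63.8%), Kcnj10 (62.7%), Kcnk9 (58.1%), Kcnq3 (48.9%), Kcnh7 (48.0%), Kcnj3 (39.99%), Kcnf1 (38.7%), Kcnj6 (38.6%) and Kcnma1 (30.3%). These 10 members at 30% or more were 19.6% of the 51, against 13.6% of the 11553 tested genes at that level. The median BCV was 16.7% for the members and 17.4% for those genes.

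The data of Kcnf1 (rn6 chr6:42471066-42473738, minus strand) show the pattern. Its 4 vehicle libraries had 114, 28.2, 103 and 73.1 CPM. Psilocybin at 3 mg/kg gave 23.8, 73.8, 86.8 and 84.9 CPM, and psilocybin at 1 mg/kg gave 76.2, 34.1, 59.8 and 93.8 CPM. The lowest library of each of these 3 groups was under the other libraries of all of them, and those others overlapped between groups. Both drugs at 3 mg/kg gave 96.2, 51.3, 95.5 and 119 CPM. The ketanserin groups and both drugs at 1 mg/kg lay between 49.9 and 129 CPM. Kcnq3 had 13.3, 6.40, 23.5 and 7.07 CPM in vehicle and 4.90, 11.9, 10.2 and 16.5 CPM after psilocybin at 3 mg/kg. Library 4 of both drugs at 3 mg/kg had 49.3 CPM of Kcnq3, and the other 27 libraries had 4.90 to 23.5 CPM.

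Kcnj10 was low in the same vehicle and psilocybin 3 mg/kg libraries. It had 29.5, 2.51, 26.7 and 15.02 CPM in the vehicle libraries and 2.63, 15.5, 14.0 and 19.9 CPM after psilocybin at 3 mg/kg. Library 4 of both drugs at 3 mg/kg had 44.97 CPM, the highest. Kcna2 ranged from 1.69 to 50.5 CPM and was also highest in that library. The 8 astrocyte markers summed to 2517 and 2658 CPM in the libraries with 2.51 and 2.63 CPM of Kcnj10, and to 2298 CPM in the library with 44.97, within a range of 2102 to 2658 CPM over all libraries. The library with the lowest sum, ketanserin 3 mg/kg library 1, had 6.26 CPM of Kcnj10. The part of astrocytes in the Kcnj10 differences was not tested.

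Kcnmb4 moved the other way in these libraries. It had 213 CPM in vehicle library 2, against 144 to 151 in the other vehicle libraries, and 230 CPM in psilocybin 3 mg/kg library 1, against 159 to 182 in the rest of that group. Its lowest value of the 28, 133 CPM, was in library 4 of both drugs at 3 mg/kg. Kcnk1 by contrast kept to 91.7 to 130 CPM and Kcnc4 to 94.4 to 127 CPM over all 28 libraries.

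**Figure D2:**
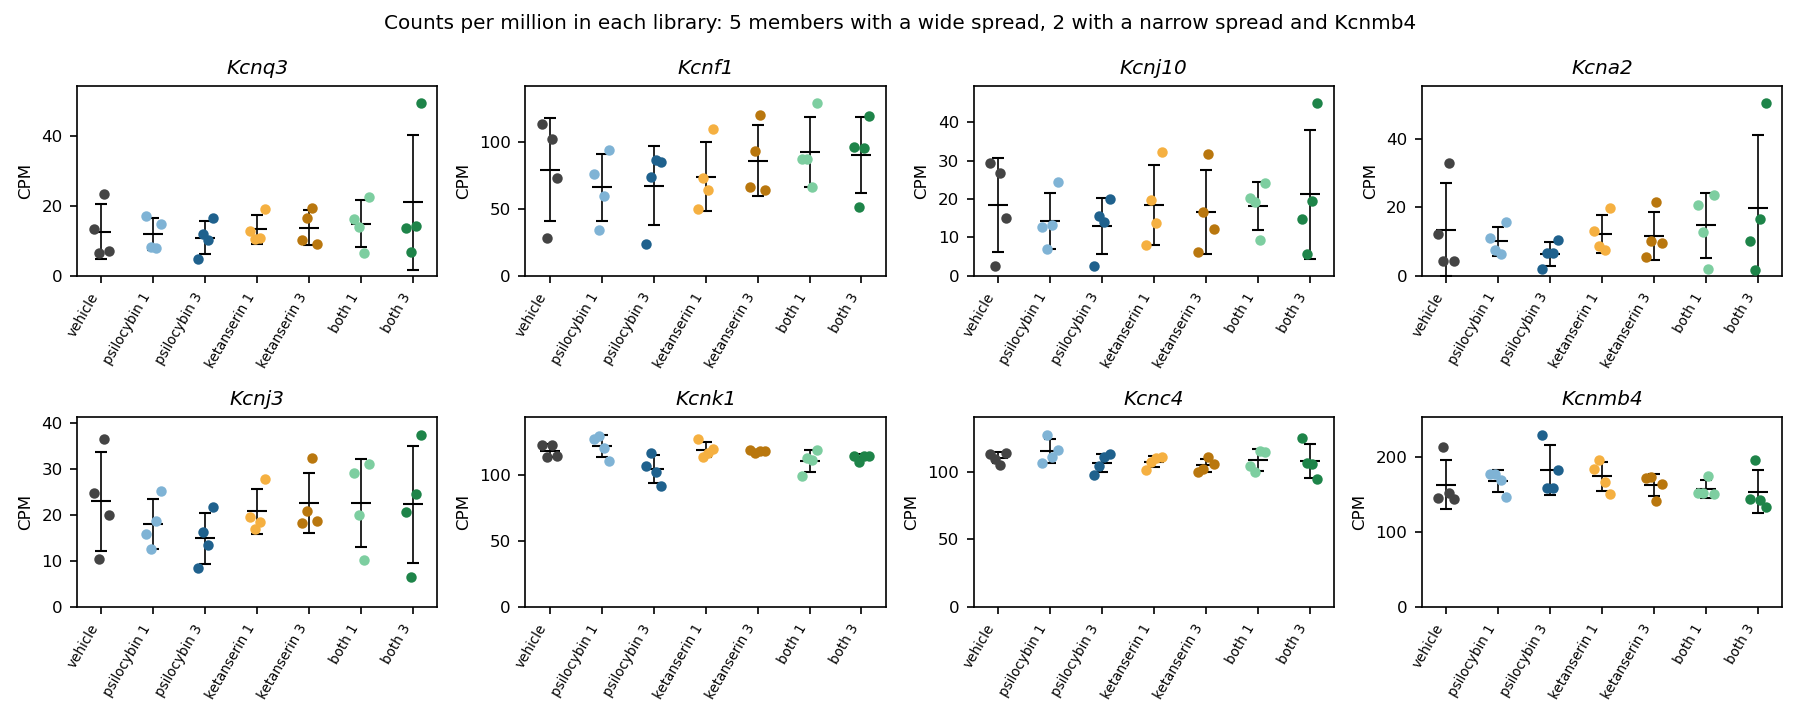
CPM in each of the 28 libraries (points) by group, with the group mean and SD (bars), for Kcnq3, Kcnf1, Kcnj10, Kcna2, Kcnj3, Kcnk1, Kcnc4 and Kcnmb4; the numbers under the axes are doses in mg/kg. Kcnq3 runs from 4.90 to 49.3 CPM with 1 library far above the rest, whereas Kcnk1 stays between 91.7 and 130 CPM.

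Upstream sequences of 4 of these genes are shown because their RNA lay at opposite ends of the difference between libraries, with Kcnj10, Kcna2 and Kcnf1 low where Kcnmb4 was high. They are the 250 bases before the start of the gene in RefSeq's rat assembly GRCr8, 5′ to 3′, with each CG dinucleotide in capitals.
Kcnj10, chr13:87334260-87334509, plus strand: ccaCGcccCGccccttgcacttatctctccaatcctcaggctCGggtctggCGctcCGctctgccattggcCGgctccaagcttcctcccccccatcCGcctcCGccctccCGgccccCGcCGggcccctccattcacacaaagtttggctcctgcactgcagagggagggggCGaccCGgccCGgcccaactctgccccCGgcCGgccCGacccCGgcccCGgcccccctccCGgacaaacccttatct
Kcna2, chr2:197393280-197393529, plus strand: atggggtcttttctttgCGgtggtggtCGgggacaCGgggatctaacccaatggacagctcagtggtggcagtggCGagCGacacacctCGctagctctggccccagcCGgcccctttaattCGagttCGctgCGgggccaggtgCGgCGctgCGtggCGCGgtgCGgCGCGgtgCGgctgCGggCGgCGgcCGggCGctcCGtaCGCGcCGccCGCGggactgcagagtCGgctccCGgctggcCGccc
Kcnf1, chr6:45693707-45693956, minus strand: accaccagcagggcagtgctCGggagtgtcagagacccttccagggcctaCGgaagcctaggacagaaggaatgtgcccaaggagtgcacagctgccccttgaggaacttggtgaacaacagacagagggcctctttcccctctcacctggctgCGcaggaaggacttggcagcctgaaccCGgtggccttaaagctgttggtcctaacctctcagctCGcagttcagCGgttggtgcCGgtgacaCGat
Kcnmb4, chr7:54005102-54005351, minus strand: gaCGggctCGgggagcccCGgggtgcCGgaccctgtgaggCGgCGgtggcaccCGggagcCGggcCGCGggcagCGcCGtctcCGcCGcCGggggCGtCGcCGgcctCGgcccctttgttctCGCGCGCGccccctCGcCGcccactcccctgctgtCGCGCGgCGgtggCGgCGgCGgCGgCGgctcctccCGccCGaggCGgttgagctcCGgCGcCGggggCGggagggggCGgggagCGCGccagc
The windows held 20, 33, 8 and 44 CG dinucleotides in this order. RefSeq windows matched 52 of the 77 members by symbol, 57 windows in all. Their median was 12 CG, against 5 over all 33469 windows of this length. At least 10 CG were found in 57.9% of the members' windows and in 35.9% of all windows. The letters TATAAA, sought on both strands, occurred in 1 member window, that of Kcnj13, or 1.75%, against 12.9% of all windows. All windows cover 27457 genes, not only those with RNA in this cortex. Whether these shares are particular to channel genes was not tested.

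The same members were low together in several libraries. Each library was compared with the median of the other 3 of its group over the 51 members. Vehicle library 2 had 8 members under 0.5 times that median and psilocybin 3 mg/kg library 1 had 7, and Kcnf1, Kcnj10, Kcna2, Kcnq3, Kcna1, Kcnj6 and Kcnk9 were in both sets. As background, 8.63% and 8.81% of all tested genes at this level were that low, against 15.7% and 13.7% of the members. In both drugs at 3 mg/kg, library 2 had 8 members that low (15.7%, against 7.12% of all genes) and library 4 had 9 members at more than 2 times the median (17.6%, against 6.68% of all genes). Library 3 of both drugs at 1 mg/kg had 7 that low (13.7%, against 5.27% of all genes). The other 23 libraries had at most 3 low and 5 high. The 3 low were in psilocybin 1 mg/kg library 2 (5.88%, against 3.82% of all genes). Vehicle library 3 and ketanserin 3 mg/kg library 3 each had 5 high (9.80%, against 3.90% and 2.75% of all genes).

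The levels of several members, like those of many genes, followed the TMM factor, which ranged from 0.904 to 1.05. The factor is computed from these same counts, multiplies the library size and so divides every CPM value. Deviations of log2 (CPM + 0.5) and of the log2 factor from their group means were related over 28 libraries for 7 genes, and permutation p-values were adjusted over these 7 relations. Kcnj10 gave Pearson r = 0.86 (adjusted permutation p = 2.33e-05, from the smallest raw p that 100000 resamples give) and Spearman rho = 0.78 (adjusted permutation p = 3.5e-05). Without vehicle library 2 and psilocybin 3 mg/kg library 1, the 2 farthest on the factor, r was 0.78. Kcnj3, Kcnj6 and Kcnq3 had r of 0.82, 0.79 and 0.71 (adjusted permutation p = 2.33e-05, 2.33e-05 and 5.25e-05), with rho of 0.78, 0.76 and 0.73 (adjusted permutation p = 2.33e-05 for each). Without those libraries their r was 0.80, 0.74 and 0.67. Kcnj9 and Kcnq5 had r of 0.66 and 0.49 (adjusted permutation p = 0.000322 and 0.00971) and rho of 0.55 and 0.51 (adjusted permutation p = 0.00389 and 0.00706), and r of 0.55 and 0.59 without them. Kcnj8, the vascular member, had r = 0.01 and rho = -0.02 (adjusted permutation p = 0.954 and 0.902), and r = -0.11 without them. With counts scaled by the total alone, which leaves the factor out of the level, r was 0.88 for Kcnj10, 0.85 for Kcnj3 and 0.18 for Kcnj8. As background, an r of at least 0.8 was found for 3 of the 51 members (5.88%), against 9.03% of the 11553 genes at that level. An r of at least 0.7 was found for 9 members (17.6%), against 16.1%, and of at least 0.5 for 16 (31.4%), against 26.4%. Scaled by the total, an r of at least 0.8 was found for 6 members (11.8%), against 15.3%. The permutation p-values therefore do not set these members apart from other genes. What sets the factor in these libraries was not tested. The summed interneuron markers were highest, at 883 and 835 CPM, in the libraries with the lowest Kcnj10. They were lowest, at 286 CPM, in the library with the highest Kcnj10, and their part was not tested.

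**Figure D3:**
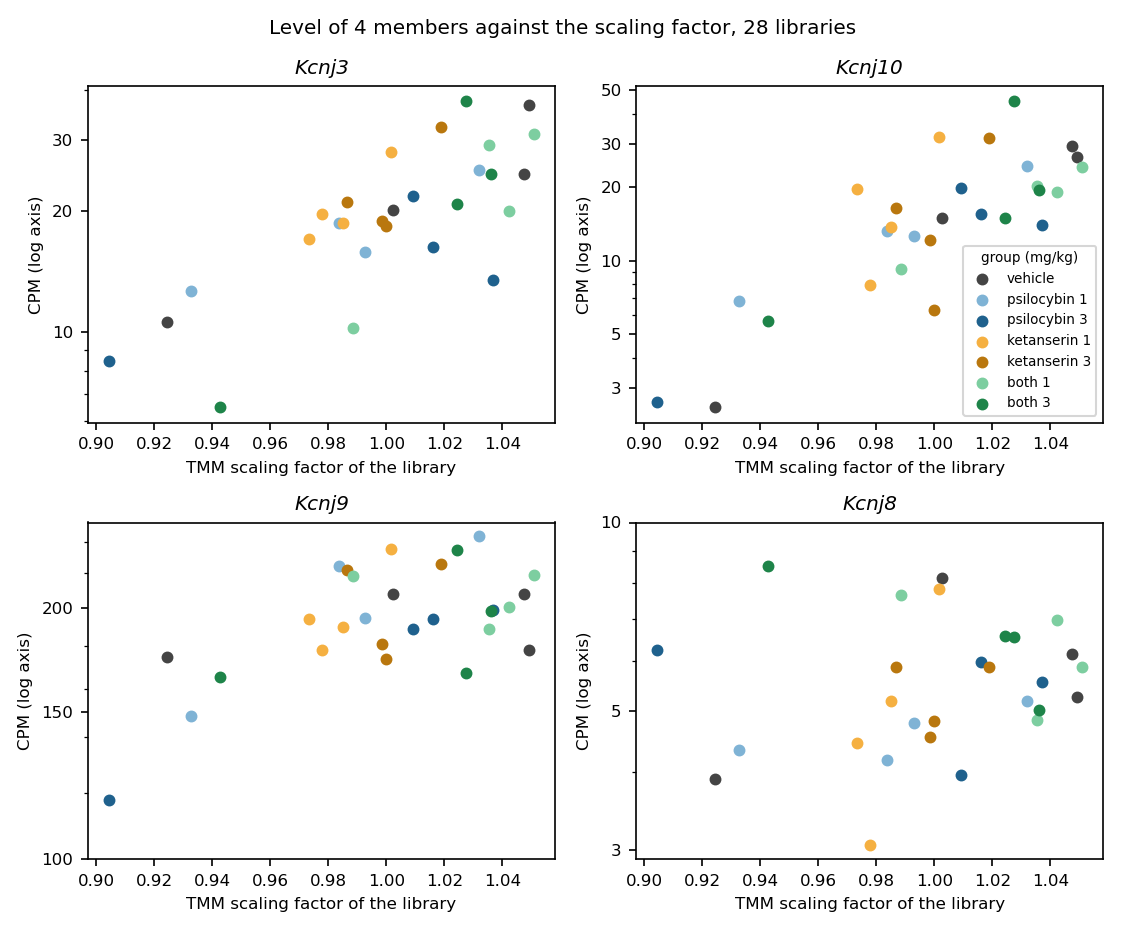
CPM of Kcnj3, Kcnj10, Kcnj9 and Kcnj8 (log axis) against the TMM factor of each library, 28 points coloured by group, doses in mg/kg. Kcnj3 and Kcnj10 are low in the libraries with the smallest factors, while Kcnj8 shows no such order (r = 0.01).

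Between groups, none of the 76 tested channel genes passed edgeR's quasi-likelihood test at an adjusted p of 0.05 in any of 19 comparisons. DESeq2 called 0 of them as well. Over all 17404 genes DESeq2 called 15 for any difference among the 7 groups and 0 to 6 in each other comparison. With edgeR, 1 of all genes was called for both drugs at 3 mg/kg against vehicle (0.00575%) and 1 for the combination groups pooled against vehicle (0.00575%). For any difference among the 7 groups edgeR called 3 (0.0172%), and it called 0% in each of the other 16 comparisons. The lowest adjusted p of a member was 0.693, in both drugs at 3 mg/kg against psilocybin at 3 mg/kg. Precision varied by gene. The 95% interval lay within a 1.5-fold change either way for 31 to 34 of the 76 members against vehicle, and within 2-fold for 44 to 51. For Kcnk1 the interval against vehicle was -0.33 to -0.03 on the log2 scale after psilocybin at 3 mg/kg, whereas for Kcnq3 it was -1.26 to 0.84. In simulated counts for psilocybin at 3 mg/kg against vehicle, the test found 16.9% of 1.5-fold, 43.9% of 2-fold and 75.4% of 4-fold changes. The changes were put into genes drawn from all those tested. Each gene was simulated on its own, so these shares leave out differences between libraries that many genes have in common. All 6 treated groups share the 4 vehicle libraries, so their values against vehicle are not independent.

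**Figure D4:**
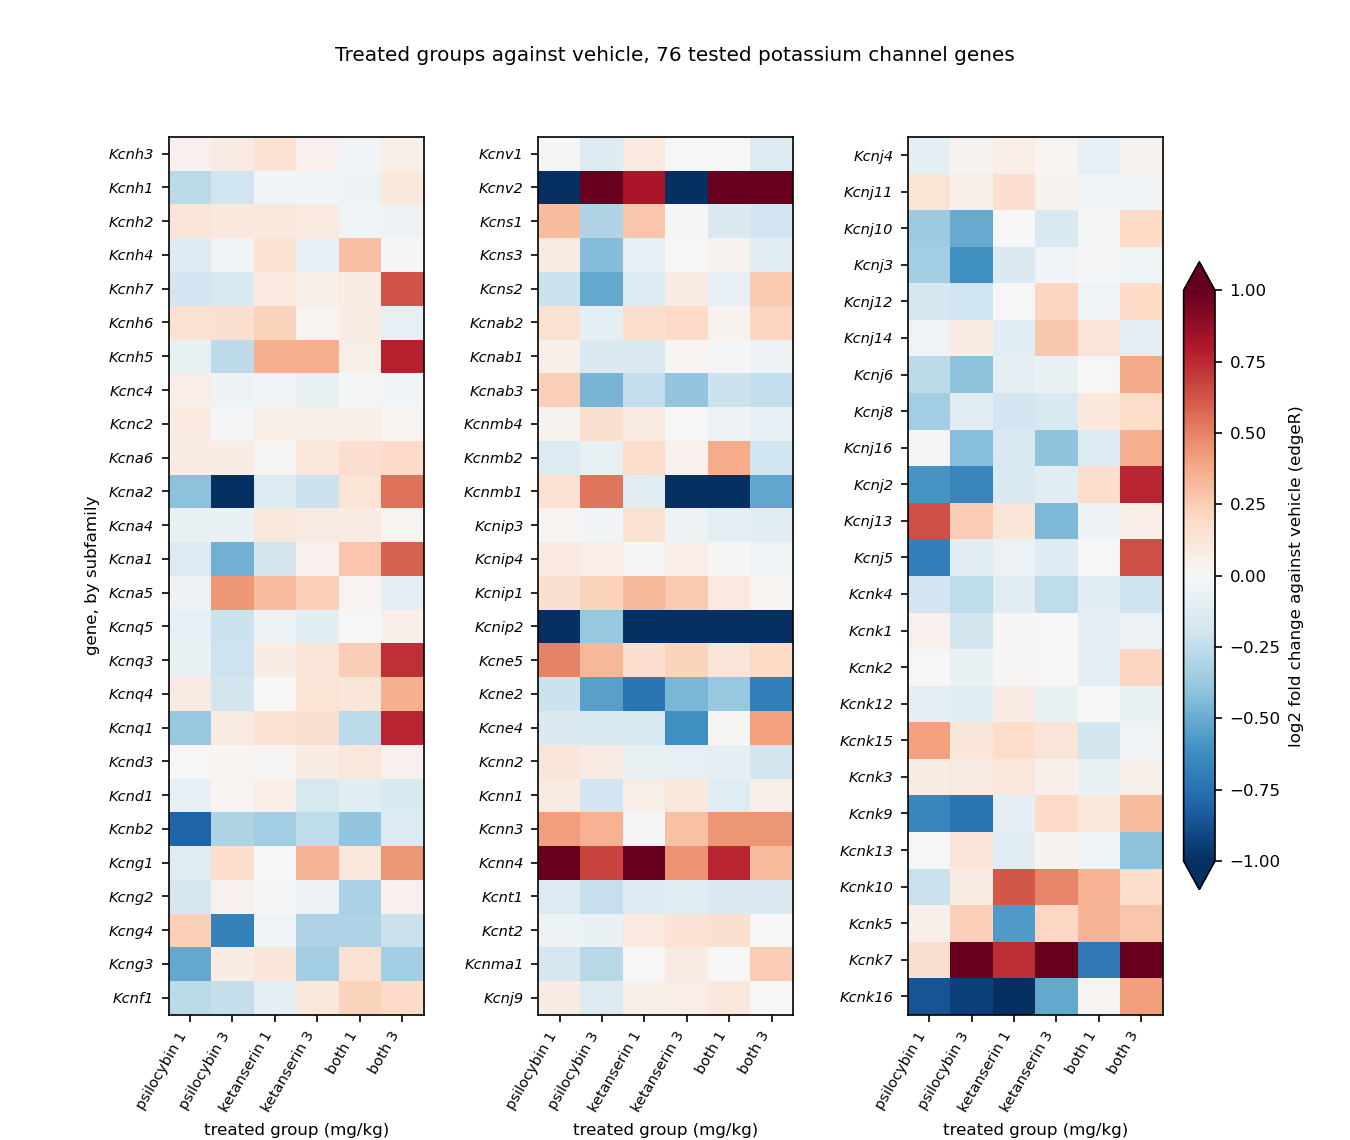
Fitted log2 fold change against vehicle (colour, clipped at 1 either way) of the 76 tested members (rows, by subfamily) in the 6 treated groups (columns, doses in mg/kg). No cell passed the test, and the darkest cells belong to members of few counts such as Kcnv2 and Kcnk7, and to Kcnip2.

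After psilocybin at 3 mg/kg the members' median log2 fold change was -0.08, with 30 higher and 46 lower, against -0.01 over all genes. Unadjusted p was under 0.05 for 5 members, all lower, or 6.58%, against 3.01% of all genes. Without the 3 libraries at the ends of the first component it was 6, again all lower, or 7.89%, against 5.16% of all genes, with a median of -0.06. The 5 were Kcns3, Kcnt1, Kcnk1, Kcng4 and Kcnab3, and each had an adjusted p of 0.997.

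Kcns3, a silent Kv9 subunit found in parvalbumin interneurons, had 20.2, 14.0, 17.9 and 17.1 CPM in vehicle and 14.9, 11.2, 11.7 and 13.4 CPM after psilocybin at 3 mg/kg. The groups overlapped in a single library of each, and the log2 fold change was -0.44 ± 0.16 (SE). Kcng4, a silent Kv6 subunit, had 11.3, 11.2, 9.17 and 8.44 CPM in vehicle and 5.19, 8.18, 4.30 and 7.42 CPM after psilocybin at 3 mg/kg. All 4 treated libraries were below all 4 vehicle libraries, as for 1.17% of all genes, and the log2 fold change was -0.67 ± 0.29 (SE). Kcnab3, a beta subunit of Kv1 channels, had 23.2, 24.0, 29.6 and 35.0 CPM in vehicle and 24.3, 23.6, 17.5 and 15.4 CPM after psilocybin at 3 mg/kg.

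Differences in the steadier genes were small. Kcnk1 had 122, 114, 122 and 115 CPM in vehicle and 107, 117, 102 and 91.7 CPM after psilocybin at 3 mg/kg, a log2 fold change of -0.18 ± 0.07 (SE). Kcnt1 had a log2 fold change of -0.23 ± 0.09 and Kcnk4 of -0.25 ± 0.13. Kcnt1 and Kcnk4, with Kcnj3, Kcne2, Kcnb2 and Kcnip2, had negative values in all 6 treated groups. Kcna6, Kcnip1, Kcne5 and Kcnn4 had positive values in all 6. Their shared vehicle libraries bear on every one of these signs.

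Psilocybin at 1 mg/kg gave 34 members higher and 42 lower than vehicle, with a median of -0.05 against -0.01 over all genes. With 2 surrogate variables, covariates estimated from variation not due to the groups, 43 were higher and 33 lower, with a median of 0.03. Unadjusted p was under 0.05 for 2 members, Kcnb2 and Kcnj5, against 1.66% of all genes. With the 3 libraries at the ends of the first component left out, 6 members were under that limit, 4 of them higher, or 7.89%, against 10.3% of all genes. Kcnb2 had 4.53, 2.57, 6.14 and 3.29 CPM in vehicle and 3.47, 0.618, 1.82 and 3.56 CPM at this dose. Kcnj5, a GIRK gene of low level in cortex, had 1.62, 2.31, 1.86 and 1.23 CPM in vehicle and 0.982, 0.962, 1.01 and 1.37 CPM at this dose. Both overlapped between the groups. Kcnn4, the intermediate-conductance calcium-activated channel, had 0.338, 0.924, 0.868 and 0.274 CPM in vehicle and 1.44, 1.65, 1.08 and 1.25 CPM here. Its groups did not overlap, as for 0.563% of all genes in that direction, at levels of few counts, and its log2 fold change was 1.15 ± 0.63 (SE). Kcnk15 had 0.41 ± 0.23 and Kcnj11 0.14 ± 0.09.

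More members had a low unadjusted p between the doses of psilocybin than between either dose and vehicle. At 3 against 1 mg/kg, 7 members had an unadjusted p under 0.05, 6 of them lower, or 9.21%, against 3.24% of all genes. Kcnab3 had 19.4, 41.8, 41.1 and 29.3 CPM at 1 mg/kg and 24.3, 23.6, 17.5 and 15.4 CPM at 3 mg/kg, a log2 difference of -0.70 ± 0.21 (SE, adjusted p = 1). Libraries 2 and 3 of the 1 mg/kg group were the high ones, and the groups overlapped. Oligodendrocyte markers summed to 3175, 7793, 8784 and 4851 CPM in the same order at 1 mg/kg and to 3612, 2709, 2370 and 5815 CPM at 3 mg/kg, and their part in this difference was not tested. Kcns3 differed by -0.52 ± 0.16 and Kcng4 by -0.91 ± 0.29 on the log2 scale. Leaving out the 3 libraries, 9 members had an unadjusted p under 0.05, 8 of them lower, or 11.8%, against 6.51% of all genes.

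**Figure D5:**
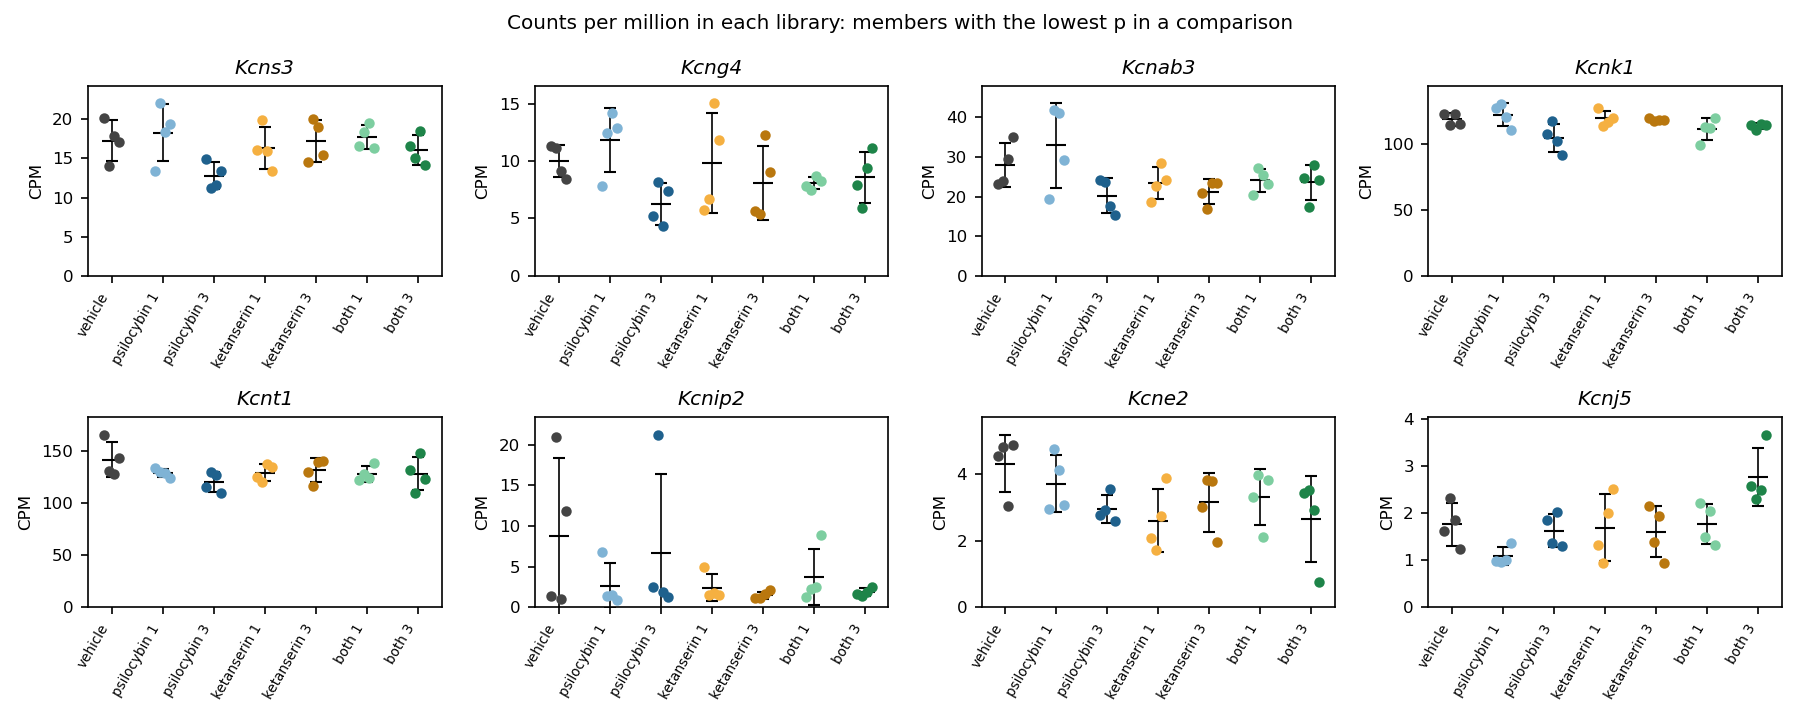
CPM in each library (points) with the group mean and SD (bars) for 8 members with low unadjusted p in some comparison: Kcns3, Kcng4, Kcnab3, Kcnk1, Kcnt1, Kcnip2, Kcne2 and Kcnj5; the numbers under the axes are doses in mg/kg. Kcng4 after psilocybin at 3 mg/kg lies between 4.30 and 8.18 CPM, under the vehicle range of 8.44 to 11.3, and Kcnip2 is high in single libraries of several groups.

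After ketanserin alone at 1 mg/kg 39 members were higher and 37 lower (median 0.01, all genes -0.02), and at 3 mg/kg 40 were higher and 36 lower (median 0.03, all genes -0.02). With 2 surrogate variables the split at 1 mg/kg was 53 higher and 23 lower (median 0.07). In each group 1 member had an unadjusted p under 0.05, against 2.07% and 2.0% of all genes. It was 7 members at 1 mg/kg without the 3 libraries, 6 of them higher, or 9.21%, against 7.43% of all genes. At 3 mg/kg it was then 1 member, or 1.32%, against 4.28% of all genes. With all libraries, the member at 1 mg/kg was Kcne2, a single-pass auxiliary subunit with high levels in choroid plexus. Kcne2 had 4.53, 4.82, 3.04 and 4.87 CPM in vehicle and 2.08, 1.72, 2.73 and 3.88 CPM after ketanserin at 1 mg/kg. The groups overlapped, and the log2 fold change was -0.73 ± 0.34 (SE). Choroid plexus markers summed to 0.744 to 1.65 CPM in the vehicle libraries and 0.799 to 3.54 CPM in that ketanserin group. Kcnip1 had a log2 fold change of 0.33 ± 0.17 at 1 mg/kg and 0.26 ± 0.17 at 3 mg/kg. Kcnj11 had 0.17 ± 0.09 at 1 mg/kg, and Kcnab3 -0.40 ± 0.21, Kcnj14 0.27 ± 0.18 and Kcng1 0.34 ± 0.24 at 3 mg/kg. Between the ketanserin doses, 1 member, Kcnj14, an inward rectifier, had an unadjusted p under 0.05 (1.64% of all genes), at a log2 difference of 0.37 ± 0.18. Its 4 libraries at 3 mg/kg had 13.5 to 16.3 CPM and lay above all 4 at 1 mg/kg (10.7 to 12.5 CPM), as for 1.05% of all genes in that direction. Kcnip3 differed by -0.21 ± 0.12. With the doses pooled, 1 member was under that limit (2.10% of all genes), Kcnip2, which was lower. Leaving out the 3 libraries gave 6 members, all higher, or 7.89%, against 6.59% of all genes.

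Kcnip2, the KChIP2 subunit of Kv4 channels, was the member with an unadjusted p under 0.05 after ketanserin at 3 mg/kg. Its level was high in single libraries of several groups and low in the rest. Vehicle libraries had 1.35, 20.99, 0.992 and 11.8 CPM. After ketanserin at 3 mg/kg the values were 1.11, 1.16, 1.59 and 2.08 CPM, within the range of the vehicle libraries. Psilocybin at 3 mg/kg had 2.49, 21.2, 1.87 and 1.22 CPM. The log2 fold change was -2.56 ± 0.94 (SE, adjusted p = 1) for ketanserin at 3 mg/kg and -2.23 ± 0.92 (SE, adjusted p = 0.999) for both drugs at 3 mg/kg. Without vehicle library 2 the value for ketanserin at 3 mg/kg was -1.66.

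Both drugs at 1 mg/kg left 37 members higher and 39 lower than vehicle, with a median of -0.00, against -0.01 over all genes. None had an unadjusted p under 0.05, against 1.3% of all genes. Kcna6, a Kv1 subunit, had 119, 130, 135 and 124 CPM in vehicle and 140, 140, 145 and 145 CPM here. These groups did not overlap, as for 0.667% of all genes in that direction, and the log2 fold change was 0.17 ± 0.09 (SE). Kcnh4, an ELK-type channel, had 0.30 ± 0.16, and Kcng2, a silent Kv6 subunit, had -0.32 ± 0.20. Both drugs at 3 mg/kg gave 43 members higher and 33 lower (median 0.04, all genes -0.02), but 30 higher and 46 lower without the 3 libraries at the ends of the first component. Kcnip2 alone had an unadjusted p under 0.05, against 3.13% of all genes. Kcna6 had 138, 171, 129 and 140 CPM in that group, a log2 fold change of 0.19 ± 0.09. Kcne2 had -0.69 ± 0.34, Kcnj5 0.64 ± 0.32 and Kcng1 0.44 ± 0.24. Pooled over doses, 2 members were under that limit for the combination, Kcnip2 and Kcna6 (1.80% of all genes), and 1 for psilocybin, Kcnt1 (1.96% of all genes).

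Both drugs were also set against psilocybin alone. That difference holds ketanserin's own effect together with any change in the response to psilocybin, and cannot separate them. At 3 mg/kg 51 members were higher and 25 lower (median 0.10, all genes -0.01), and 5 had an unadjusted p under 0.05, all higher, or 6.58%, against 5.74% of all genes. Without the 3 libraries at the ends of the first component 36 were higher and 40 lower. Then 3 were under that limit, or 3.95%, against 2.05% of all genes. With 2 surrogate variables 37 were higher and 39 lower. Of the 6 endothelial and mural markers tested, 4 had an unadjusted p under 0.05 in the same comparison, 3 of them lower, with a median of -0.27. These markers summed to 197 to 310 CPM after psilocybin at 3 mg/kg and 203 to 245 CPM after both, and their part in the members' differences was not tested. Kcnj5 had 1.85, 1.35, 2.01 and 1.29 CPM after psilocybin at 3 mg/kg and 2.58, 2.30, 2.48 and 3.66 CPM after both. The groups did not overlap, as for 0.689% of all genes in that direction, and the log2 difference was 0.76 ± 0.32 (SE, adjusted p = 0.693). The SK channel gene Kcnn1 differed by 0.25 ± 0.11. Kcnab2 had 164, 239, 222 and 248 CPM after psilocybin and 242, 192, 258 and 394 CPM after both, with overlap. Its log2 difference was 0.32 ± 0.15 (SE), but -0.04 without the 3 libraries. Kcnj5 was also above ketanserin alone at 3 mg/kg, which had 2.15, 1.39, 1.93 and 0.945 CPM, again with no overlap, as for 0.649% of all genes in that direction. It was likewise above all 4 libraries of both drugs at 1 mg/kg (1.31 to 2.20 CPM), as for 0.465% of all genes.

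At 1 mg/kg 5 members had an unadjusted p under 0.05 for both drugs against psilocybin alone, 3 higher and 2 lower, against 4.13% of all genes. Kcnk15, a K2P gene, had 33.4, 46.2, 36.4 and 30.7 CPM after psilocybin at 1 mg/kg and 22.4, 24.2, 27.2 and 23.4 CPM after both. All 4 libraries were below, as for 1.73% of all genes, and the log2 difference was -0.59 ± 0.23 (SE, adjusted p = 0.894). Kcnh4 differed by 0.43 ± 0.16. Kcnv2 had at most 0.0673 CPM in any library after psilocybin and 0.0612 to 1.06 CPM after both, again from few counts. Against ketanserin alone, both drugs gave 2 members under that limit at 1 mg/kg, Kcnj11 and Kcnip3 (2.92% of all genes), and 2 at 3 mg/kg, Kcnv2 and Kcnj5 (3.41% of all genes). Kcnj11 had 90.3, 91.8, 86.6 and 86.9 CPM after ketanserin at 1 mg/kg and 66.6, 74.4, 85.6 and 82.4 CPM after both, without overlap, as for 1.56% of all genes in that direction. Kcna6 had 117, 129, 136 and 131 CPM after ketanserin at 1 mg/kg, all under the 4 libraries of both drugs, as for 1.57% of all genes in that direction, and the log2 difference was 0.15 ± 0.09 (SE). Kcnv2 had 0.790, 0.744, 0.807 and 0 CPM after both at 3 mg/kg and 0.0652, 0, 0 and 0.126 CPM after ketanserin, so it was read from a few counts. Between the doses of both drugs, 1 member was under that limit, Kcnk7 (3.31% of all genes), likewise of few counts.

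The interaction, which asks whether both drugs differ from the sum of each alone, gave 2 members with an unadjusted p under 0.05 at 1 mg/kg (4.09% of all genes) and 1 at 3 mg/kg (3.20% of all genes). At 1 mg/kg these were Kcnj11 at -0.34 ± 0.13 and Kcnk15 at -0.78 ± 0.32 on the log2 scale (edgeR, adjusted p = 0.938 for each). Kcns1, a silent Kv9 subunit, had -0.73 ± 0.36. Without the 3 libraries at the ends of the first component 11 members were under that limit, 10 of them negative, or 14.5%, against 15.4% of all genes. Kcnk15 then had -0.99 ± 0.20 and an adjusted p of 0.0822, the lowest of any member under any setting. At 3 mg/kg Kcnab3 had 0.62 ± 0.29, Kcnip1 -0.48 ± 0.24 and Kcnj5 0.89 ± 0.46. For any difference among the 7 groups, 2 members, Kcnj5 and Kcnab3, had an unadjusted p under 0.05, against 2.22% of all genes.

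With all libraries kept, groups overlapped in every comparison with vehicle for the M-current genes and for Kcnj9 and Kcnj3 of the GIRK genes. Kcnq3 means ran from 10.9 ± 4.78 CPM after psilocybin at 3 mg/kg to 20.95 ± 19.2 CPM after both drugs at 3 mg/kg, with 12.6 ± 7.92 in vehicle (SD, n = 4). The highest mean rests on library 4: without it, the other 3 libraries of both drugs at 3 mg/kg had 11.5 ± 4.17 CPM, and without the 3 libraries at the ends of the first component the log2 fold change against vehicle was -0.33 in place of 0.73. Kcnq5 was steadier, from 126 ± 7.83 after psilocybin at 3 mg/kg to 151 ± 35.8 CPM after both at 3 mg/kg. Its overlap between vehicle and psilocybin at 3 mg/kg came from vehicle library 2, at 118 CPM. Other vehicle libraries had 145 to 171 CPM, and those after psilocybin had 120 to 137 CPM. Without the 3 libraries Kcnq5 had 155 ± 14.0 CPM in vehicle and 122 ± 2.88 CPM after psilocybin at 3 mg/kg (SD). The log2 fold change was then -0.33 ± 0.13 (SE), in place of -0.21. Kcnj9 means lay from 175 ± 38.4 to 207 ± 14.8 CPM and Kcnj3 means from 15 ± 5.56 to 23.0 ± 10.8 CPM. Over the 6 treated groups Kcnq3's log2 fold changes ran from -0.21 to 0.73, and from -0.33 to 0.04 without the 3 libraries. Those of Kcnq5 ran from -0.21 to 0.05, and from -0.33 to -0.09 without them. Kcnj3 had -0.62 to -0.02, and -0.64 to -0.25 without them. Kcnj9 had -0.14 to 0.11, and -0.01 to 0.07 without them. Kcnj5, the GIRK gene described above, had 0.64 after both drugs at 3 mg/kg against vehicle and 0.65 without the 3 libraries.

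Of 31 listed partner genes, which encode proteins that bind, anchor or tune potassium channels, or the related HCN channels, 28 were tested and 0 passed edgeR's test against vehicle in any group. Against vehicle, none had an unadjusted p under 0.05 in 5 of the treated groups. After psilocybin at 3 mg/kg 3 did, 1 higher and 2 lower, against 3.01% of all genes. They were Epb41l3, a membrane scaffold, at -0.28 ± 0.12, Cntn2, which places Kv1 channels beside nodes of Ranvier, at -0.48 ± 0.20, and Hcn4, a hyperpolarisation-activated channel, at 0.38 ± 0.18 on the log2 scale. Partners' median was -0.13 in that group, against -0.08 for the members and -0.01 for all genes.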

How the data were processed

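The authors deposited a table of gene counts and a table of FPKM, each for 28 libraries. Per the submitters' processing notes, HISAT2 2.0.5, StringTie 1.3.3b, featureCounts 1.5.0-p3 and the rn6 build were used, with no roles given. Per the labels' protocols, poly-A RNA went into directional libraries. The deposited FPKM equal the counts divided by gene length and a scaled library size, 0.915 to 1.07 times the total, and were used only to compare genes by length. Rows without a gene name (3842, 1.99% to 4.46% of counts) stayed in the totals and the fit.

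Deposited counts were fitted with edgeR 4.0.16 (R 4.3.3): filterByExpr by group, TMM factors, a robust quasi-likelihood F test with a coefficient for each of 7 groups (21 residual degrees of freedom) and Benjamini-Hochberg adjustment over 17404 genes. All p-values not called permutation come from it. The labels do not say whether libraries came from separate animals, so p-values measure the spread between these samples. SE and 95% intervals are of log2 fold changes. The test was run on simulated data: 0 of 16986 unchanged genes were called. Genes did not vary together there, so this does not give the error rate in the real libraries.

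Members and lists were chosen with earlier results of these data known. Named genes were the 6 members of lowest p in each treated group against vehicle, 3 in each other comparison, 8 for any difference, the highest FPKM of each subfamily, 7 Kv7 and Kir genes, and the members beside the count minimum. Of the 10 gene lists, the sums for neuron, interneuron, astrocyte, oligodendrocyte, choroid plexus and partner genes are given in the report. Microglia markers summed to 163 to 221 CPM, endothelial and mural markers to 190 to 310, striatum markers to 340 to 537, and meninges markers to 150 to 537. Some genes with a symbol of this form are not reported here and enter no count or share of the members. Alternatives were DESeq2 1.42.0, other scaling, no filter, only the groups compared, each library left out, and, chosen after seeing the data, leaving out 3 libraries, 2 surrogate variables (sva 3.50.0) and, for the relations to the TMM factor, scaling by the total count.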

Additional observations from a re-analysis of the deposited data

Results flagged for a closer look

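In each group of 4 libraries, the gap of the highest or lowest library to its neighbour was set against the group's range for 28 named members. Of 196 such groups, 17 (8.67%) had a library past Dixon's 95% limit, against 6.63% over all tested genes. Chance gives about 1 in 20 for independent groups, and these members were chosen with values known and share libraries.

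Kcnip2 had the most: 6.75 CPM in psilocybin 1 mg/kg library 1, 21.2 CPM in psilocybin 3 mg/kg library 2, 4.92 CPM in ketanserin 1 mg/kg library 1 and 8.90 CPM in library 4 of both drugs at 1 mg/kg, each above the rest of its group. Psilocybin 3 mg/kg library 1 stood apart for 3 members, low for Kcnj9 at 118 CPM, and high for Kcnj11 at 95.05 CPM and Kcnk15 at 43.7 CPM. Kcnk15 was also high in vehicle library 2, at 38.0 CPM.

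Kcng1 was high in psilocybin 1 mg/kg library 1 at 61.5 CPM and in library 4 of both drugs at 1 mg/kg at 59.96 CPM. Kcnj6 was high in ketanserin 1 mg/kg library 4 at 15.9 CPM, and Kcnj5 in psilocybin 1 mg/kg library 4 at 1.37 CPM. Kcnh4 was low in psilocybin 3 mg/kg library 4 at 15.6 CPM, and Kcnk1 in library 2 of both drugs at 3 mg/kg at 110.0 CPM. Members of few counts were Kcnk7 at 1.75 CPM and Kcnmb1 at 0.896 CPM, in libraries 4 and 1 of both drugs at 3 mg/kg, and Kcnn4 at 1.90 CPM in library 3 of both drugs at 1 mg/kg.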

How the results depend on the processing

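No member was called in any of 325 fits over 34 other settings, DESeq2 included, and the lowest adjusted p was 0.0822. The 72 log2 fold changes of members named for a low p kept their sign under scaling by RLE, without a low-count filter, with DESeq2 and with 2 surrogate variables. Without the 3 libraries at the ends of the first component 71 did, and Kcnab2 turned from 0.32 to -0.042 for both drugs against psilocybin at 3 mg/kg; the cause was not tested. The 66 that could be fitted on only the groups compared kept their sign too, as did all 711 values with a library left out. Sizes were less stable: Kcnip2 ran from -2.93 to -1.66 for ketanserin at 3 mg/kg, and Kcnab2 from 0.08 to 0.46 for both drugs against psilocybin at 3 mg/kg. The Kv7 and Kir genes named whatever their p are outside these 72, and signs changed among them without the 3 libraries. For both drugs at 3 mg/kg against vehicle, Kcnq3 went from 0.73 to -0.33 and Kcnj6 from 0.38 to -0.43. Kcnj10 went from 0.20 to -0.81, Kcnq5 from 0.05 to -0.17 and Kcnj9 from -0.004 to 0.02. Kcnj3 (-0.04 to -0.63) and Kcnj8 (0.18 to 0.04) kept their sign there. The count of members with an unadjusted p under 0.05 moved by over 1.5 times in 15 of 19 comparisons without the 3 libraries (up in 12, down in 3), in 16 with 2 surrogate variables (up in 13, down in 3) and in 6 with DESeq2 (all up). Without the 3 libraries it went from 2 to 6 for psilocybin at 1 mg/kg and from 1 to 7 for ketanserin at 1 mg/kg. It went from 1 lower to 6 higher for ketanserin pooled, from 1 to 5 for psilocybin pooled and from 2 to 6 for any difference. Over all genes the share rose too, in this order from 1.66% to 10.3%, 2.07% to 7.43%, 2.10% to 6.59%, 1.96% to 7.73% and 2.22% to 4.48%. The 7 relations to the TMM factor kept their sign and side of the threshold when scaled by the total count. No paired analysis was possible because the labels give the libraries no replicate numbers. Low counts limit Kcnv2, Kcnk7, Kcnmb1 and Kcnk16, which had 114 to 154 counts over all libraries.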
